A study of Mus musculus with 8 samples.

Results

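The 10 genes described here sit at the nuclear and feedback end of canonical Wnt signaling: Ctnnb1, Axin1, Axin2, Lef1, Tcf7, Nkd1, Nkd2, Rnf43, Znrf3 and Sp5. They were taken by symbol from a table of 47706 entries of gene counts, of which 16736 held enough counts to be tested. All 10 were found, and 9 of them passed that filter. Sp5 had between 0 and 8 counts in each sample and was not tested. The members were chosen by function, not by their change in these cultures, although earlier results of these data were known when the list was drawn up.

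The study was about the use of fatty acids by osteoblasts, the cells that form bone, in the response to parathyroid hormone (PTH), and RNA was sequenced to read the effect of PTH on metabolic genes. In its pathway analysis of all genes higher with PTH, the study also named Wnt signaling among the responses it expected. That enrichment covers a whole pathway and only the higher genes, so it is a different measure from the levels of the members given here. RNA was sequenced from primary mouse calvarial osteoblasts, isolated from the skull vault of newborn pups, in 4 samples given PTH 1–34 and in 4 given the vehicle, all for 24 hours after 7 days of differentiation. The labels give no dose and name no genetic change. The strain, sex and pooling of the pups were not given in the sources used here, and neither was whether the 4 samples of a group came from separate isolations, so p-values measure the spread between these samples, which may be technical. The methods describe osteogenic medium and serum starvation of both groups before treatment, whereas the sample labels call the differentiation adipogenic. Total counts ranged from 33605610 to 56090654 per sample. Of 10 osteoblast markers, all were detected, and their summed level was between 73100 and 105700 CPM (counts per 1000000 of the TMM-scaled library size). Most of that sum came from the collagen genes Col1a1 (mean 44360 CPM with vehicle and 48170 with PTH) and Col1a2 (35070 and 35270). The sum therefore says little of the other markers. The 8 adipocyte markers summed to between 41.5 and 65.1 CPM, and 1 of the 7 that could be tested was lower with PTH. Tnfsf11, which encodes RANKL and is a known PTH response gene, had between 0.987 and 1.79 CPM with vehicle and between 115 and 157 CPM with PTH, in the direction of the labels.

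In canonical Wnt signaling, β-catenin (Ctnnb1) is bound by a cytoplasmic destruction complex built on the scaffold axin, phosphorylated and degraded. When a Wnt ligand engages Frizzled and Lrp5 or Lrp6, the complex is inactivated, and β-catenin enters the nucleus and binds the TCF/LEF factors, among them Lef1 and Tcf7. Several of the genes that these factors turn on act back on the pathway. Axin2 rebuilds the destruction complex, Nkd1 and Nkd2 bind Dishevelled, and the membrane ubiquitin ligases Rnf43 and Znrf3 remove Frizzled from the cell surface. In bone, this pathway promotes the osteoblast fate and bone formation.

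With PTH, 1 of the 9 genes tested was higher, 6 were lower and 2 did not pass the test. Lef1 transcript was 7.53-fold higher with PTH, whereas Tcf7 transcript, which encodes a related factor, fell to 23.7% of its vehicle level. The feedback genes Axin2, Nkd1, Nkd2, Rnf43 and Znrf3 all fell, to between 42.9% and 78.7% of the vehicle level. Ctnnb1 and Axin1 did not pass the test, and their groups overlapped. These calls are from edgeR's quasi-likelihood test at a Benjamini-Hochberg adjusted p under 0.05 over all 16736 genes tested, of which 45.8% passed, 23.3% with a higher and 22.5% with a lower level. Against those shares, 6 of 9 members were lower and 1 was higher, a description of a chosen list and not a test of it. The median log2 fold change was -0.53 over the 9 members and -0.00081 over all genes tested. In 7 members every PTH sample lay on one side of every vehicle sample, which was so for 43% of all genes tested. Lef1, Tcf7 and Axin2 also had a log2 fold change past 1 in size, as did 11.2% of all genes tested. In RNA from whole cultures, fewer cells of a type and less transcript per cell cannot be told apart.

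**Figure D1:**
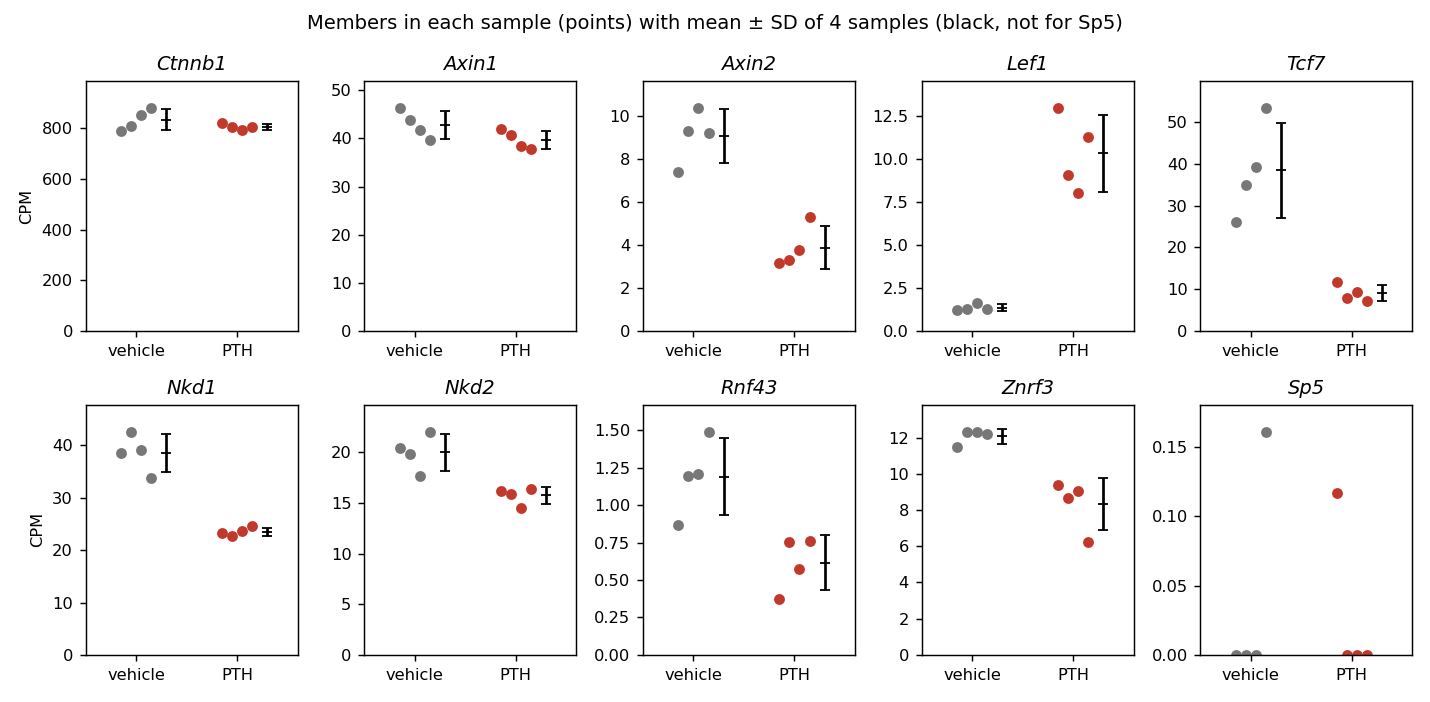
CPM of each member in the 4 vehicle (grey) and 4 PTH samples (red), with the mean ± SD in black (none for Sp5) and each vertical axis starting at 0. Lef1 was between 1.21 and 1.65 CPM with vehicle and between 7.99 and 13.0 CPM with PTH, while Tcf7, Axin2, Nkd1, Nkd2, Rnf43 and Znrf3 were lower in every PTH sample than in every vehicle sample.

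**Figure D2:**
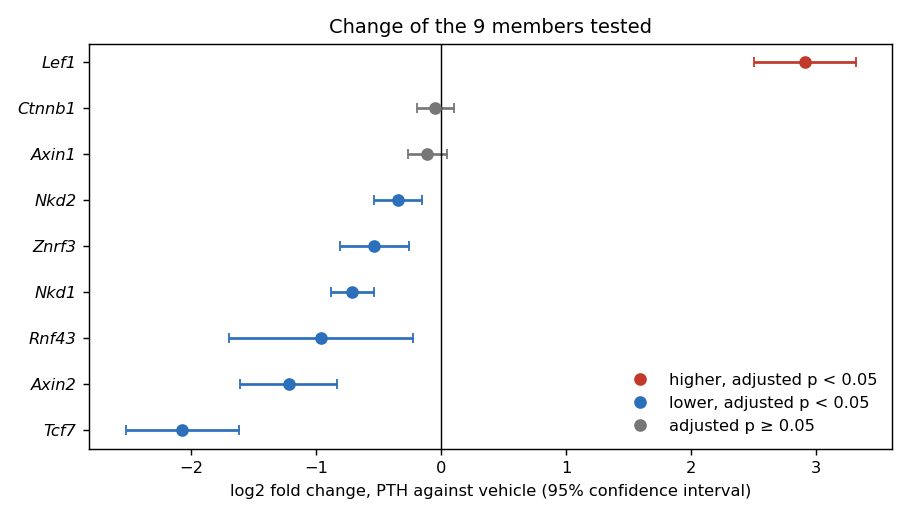
Log2 fold change of the 9 members tested with its 95% confidence interval (horizontal axis), red for a higher and blue for a lower level at an adjusted p under 0.05 and grey otherwise. Lef1 stands at 2.91 and Tcf7 at -2.07, and the intervals of Ctnnb1 and Axin1 include 0.

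The start of each gene is given as annotated in RefSeq for GRCm38.p6, from 250 bases before the transcription start to 50 after it, a window of 300 bases. A window was found for 8 members, and no window was matched for Axin1 or Znrf3. Each of the 14 windows of these 8 genes was searched on both strands for the TCF/LEF core (CTTTGAA and CTTTGAT as well as CTTTGTA and CTTTGTT), for the full cAMP response element TGACGTCA and for its short form TGACG, since the PTH receptor signals in part through cAMP. The short form lies within the full element. The core was present in 2 of the 14 windows and in 16.9% of all 32851 windows of the same length. The full element was in none of the 14 and in 1.79% of all windows, and its short form was in 1 of the 14, a Ctnnb1 window, and in 20.8% of all. The windows below belong to the genes with the largest changes, Lef1, Tcf7 and Axin2, and to Sp5, the only other member with a core. Capitals mark the TCF/LEF core, which reads as its reverse complement where it lies on the other strand, and a window without capitals holds none of these letters. Lef1 has 4 windows, of which 2 are shown: the first, at chr3:131110047-131110346 (plus strand), and the only one with a core, at chr3:131156044-131156343, which lies within the gene. The Lef1 windows at chr3:131110073-131110372 and, within the gene, chr3:131112541-131112840 hold no core and are not shown. Of 2 Tcf7 windows, neither with a core, the one shown is chr11:52282965-52283264 (minus strand), and the other is chr11:52282546-52282845. The Axin2 window is chr11:108920099-108920398 (plus strand) and the Sp5 window is chr2:70474673-70474972 (plus strand). All are written 5′ to 3′ on the gene's strand.
Lef1, first start: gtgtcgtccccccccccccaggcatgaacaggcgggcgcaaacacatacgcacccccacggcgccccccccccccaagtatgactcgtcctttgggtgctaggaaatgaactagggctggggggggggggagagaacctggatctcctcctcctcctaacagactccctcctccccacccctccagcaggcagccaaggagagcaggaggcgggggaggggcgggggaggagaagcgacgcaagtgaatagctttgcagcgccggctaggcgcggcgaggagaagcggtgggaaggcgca
Lef1, start with a core: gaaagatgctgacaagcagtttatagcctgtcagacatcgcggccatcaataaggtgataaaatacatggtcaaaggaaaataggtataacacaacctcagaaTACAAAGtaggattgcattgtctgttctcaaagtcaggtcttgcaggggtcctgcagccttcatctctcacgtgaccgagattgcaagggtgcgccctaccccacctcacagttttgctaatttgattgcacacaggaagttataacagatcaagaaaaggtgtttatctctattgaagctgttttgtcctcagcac
Tcf7: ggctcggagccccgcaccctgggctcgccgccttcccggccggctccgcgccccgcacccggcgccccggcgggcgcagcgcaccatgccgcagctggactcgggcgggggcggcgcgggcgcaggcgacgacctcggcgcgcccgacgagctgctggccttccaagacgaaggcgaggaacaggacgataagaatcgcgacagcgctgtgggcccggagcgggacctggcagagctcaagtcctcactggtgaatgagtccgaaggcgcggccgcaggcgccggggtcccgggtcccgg
Axin2: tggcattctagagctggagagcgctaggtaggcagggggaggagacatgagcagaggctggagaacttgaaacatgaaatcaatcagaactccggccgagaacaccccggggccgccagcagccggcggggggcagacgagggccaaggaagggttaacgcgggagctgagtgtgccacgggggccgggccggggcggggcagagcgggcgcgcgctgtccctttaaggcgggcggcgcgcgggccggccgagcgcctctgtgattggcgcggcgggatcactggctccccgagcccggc
Sp5: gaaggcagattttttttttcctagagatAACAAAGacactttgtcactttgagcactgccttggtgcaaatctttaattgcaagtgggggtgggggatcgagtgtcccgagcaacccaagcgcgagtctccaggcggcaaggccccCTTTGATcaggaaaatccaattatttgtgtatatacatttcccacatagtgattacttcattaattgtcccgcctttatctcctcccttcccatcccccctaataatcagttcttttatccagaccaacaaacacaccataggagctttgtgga

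The 14 windows held between 43.7% and 76.3% G and C. The 2 windows with a core were at the lower end, at 43.7% for Lef1 and 45.0% for Sp5, but the Rnf43 windows, at 44.3% and 46.7%, held none. The counts are per gene, so they do not separate transcripts that begin at the different Lef1 starts.

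Lef1 encodes lymphoid enhancer-binding factor 1, a DNA-binding partner of β-catenin, and lies on chromosome 3 from 131110471 to 131224356 (GRCm38, GENCODE M21). The 4 vehicle samples had 1.21, 1.31, 1.65 and 1.31 CPM and the 4 PTH samples 13.0, 9.06, 7.99 and 11.2 CPM. The lowest PTH sample was thus above the highest vehicle sample, and the PTH samples spread over a wider range. In exact permutation tests of log2(CPM + 0.1) over the samples, each of the 7 members called gave a two-sided p of 0.0286, the smallest that the 70 assignments of 4 and 4 samples allow. The counts behind the Lef1 values were 54 to 79 with vehicle and 301 to 664 with PTH. The mean rose from 1.37 ± 0.193 to 10.3 ± 2.22 CPM (SD, n = 4), a log2 fold change of 2.91 (standard error 0.187, edgeR adjusted p = 1.15e-07). By size of increase, Lef1 was 260th of the 16736 genes. An antisense gene, Gm43352, shares 1208 exonic bases with Lef1, and the strand setting of the counting was not given. Gm43352 itself had 6 to 28 counts with vehicle and 16 to 42 with PTH, fewer than Lef1 in every sample.

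Tcf7 encodes TCF-1, the other TCF/LEF factor among the members, on chromosome 11 from 52252371 to 52283014. Its level was 26.0, 34.9, 39.3 and 53.3 CPM in the vehicle samples and 11.8, 8.004, 9.37 and 7.23 CPM in the PTH samples. Tcf7 fell from 38.4 ± 11.4 to 9.09 ± 1.99 CPM (n = 4), with a log2 fold change of -2.07 (standard error 0.208, edgeR adjusted p = 6.41e-06). Ranked by decrease, Tcf7 was 79th of the genes tested. Vehicle samples varied more for Tcf7 than for any other member tested, with a coefficient of variation of 29.7%, against a median of 6.17% over the 9792 genes that averaged 10 CPM or more. The lowest vehicle sample was nonetheless above the highest PTH sample.

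Both factors are also known from T lymphocytes, so markers of that lineage were read in the same samples. The CD3 genes Cd3e, Cd3d and Cd3g and Cd8a were at 0 in all 8 samples. The other 4 of the 8 T lymphocyte markers, mostly Cd4, which macrophages can also carry, summed to between 1.63 and 3.89 CPM with vehicle and between 3.18 and 5.49 CPM with PTH, and neither of the 2 that could be tested was called. The 10 macrophage markers summed to between 1005 and 1635 CPM with vehicle and between 1575 and 2019 CPM with PTH. Most of this was Lyz2, with a mean of 914 CPM with vehicle and 1417 with PTH. At an adjusted p under 0.05, 2 of the 10 were higher and none lower, where 23.3% of all genes tested were higher. The 6 chondrocyte markers summed to between 250.9 and 266.3 CPM with vehicle and between 297 and 403 CPM with PTH. Most of this sum was Col2a1, with a mean of 225.7 CPM with vehicle and 306.7 with PTH. Of the 4 chondrocyte markers that could be tested, 2 were higher. The 6 endothelial markers summed to between 6.15 and 6.97 CPM with vehicle and between 5.66 and 7.11 CPM with PTH. Of the 4 endothelial markers that could be tested, 1 was higher and 1 lower, and Emcn was at 0 throughout. The part of macrophages and chondrocytes in the changes of Lef1 and the other members was not tested. Among the osteoblast markers, 3 of 10 were lower with PTH and none was higher, where 22.5% and 23.3% of all genes tested were. Runx2 was among the lower ones (log2 fold change -0.33, edgeR adjusted p = 0.00362), and the mean of Sp7 went from 103 to 30.1 CPM. Means were higher with PTH for Alpl (246.3 to 298.8 CPM) and Bglap (251.9 to 259.4), as for the collagen genes above. They were lower for Ibsp (1407 to 1219 CPM), Spp1 (515.5 to 420.6), Dmp1 (18.05 to 8.271) and Phex (40.48 to 30.01).

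Within a sample, the ratio of Lef1 to Tcf7 does not depend on how the library is scaled. The ratio of Lef1 to Tcf7 counts was 0.0468, 0.0379, 0.0422 and 0.0248 in the vehicle samples. In the PTH samples it was 1.10, 1.13, 0.853 and 1.56, so the 2 genes had similar counts. The log2 ratio thus moved from -4.76 ± 0.403 to 0.181 ± 0.355 (n = 4), a difference of 4.94 (exact permutation test, two-sided p = 0.0286, the smallest that 4 samples against 4 allow). Adjusted over the 4 ratios compared, this permutation p was 0.0571. With the smallest p reached by 2 of the 4 ratios, neither could pass 0.05 after adjustment. Per kilobase of transcript, the 4 TCF/LEF factors were set side by side, a description added after the values were seen. Lef1 made up between 0.689% and 0.943% of their summed level with vehicle and between 5.92% and 8.59% with PTH. The share of Tcf7 went from between 25.4% and 41.5% to between 7.47% and 11.5%. Tcf7l1 and Tcf7l2, which encode the other two factors, took the larger part in every sample, and their joint share was higher with PTH. Tcf7l2 rose with PTH (log2 fold change 0.38, edgeR adjusted p = 0.00123), and Tcf7l1 had a log2 fold change of -0.19 (edgeR adjusted p = 0.0535). The summed level of the 4 genes was 46.9 ± 4.41 CPM per kilobase with vehicle and 37.8 ± 3.22 with PTH. Its ranges were separated only by a narrow gap, from a PTH maximum of 41.25 to a vehicle minimum of 41.38.

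**Figure D3:**
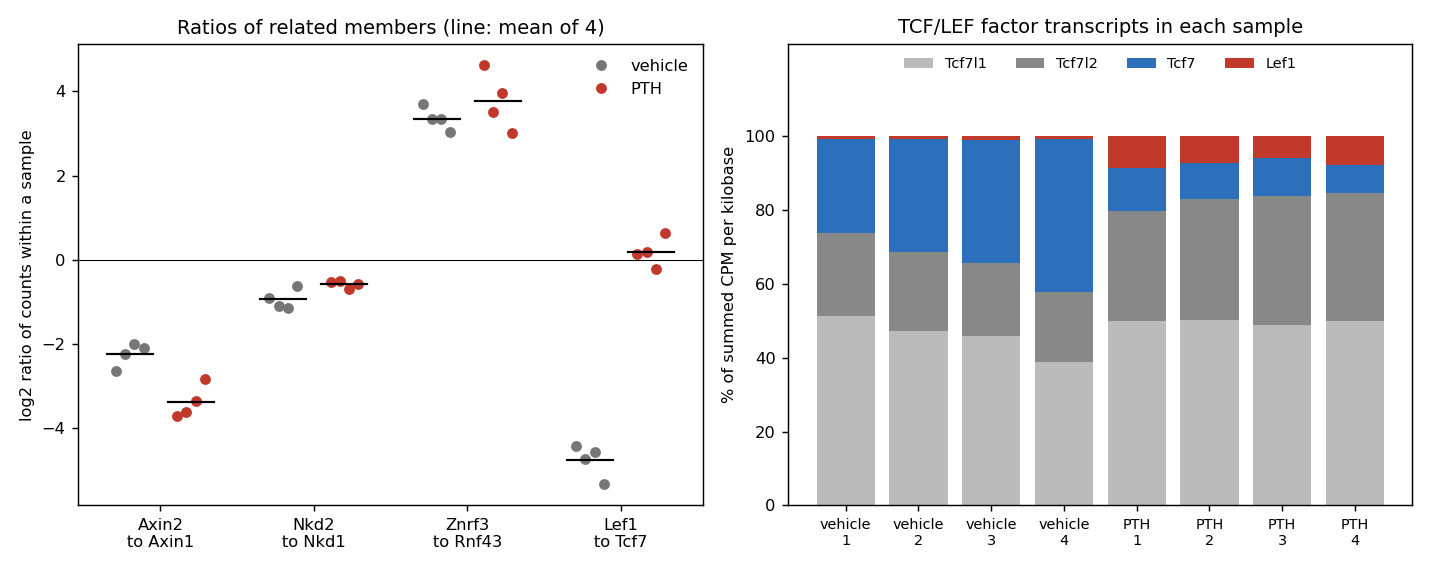
Left, log2 ratio of counts of 4 pairs of related members within each sample (grey, vehicle; red, PTH; line, mean of 4). Right, share of each TCF/LEF factor gene in their summed CPM per kilobase, 1 bar per sample: Lef1 was at most 0.943% with vehicle and at least 5.92% with PTH, and Tcf7 was at least 25.4% with vehicle and at most 11.5% with PTH.

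Axin2 encodes a scaffold of the destruction complex and is widely used as a readout of β-catenin activity. It lies on chromosome 11 from 108920349 to 108950783. The vehicle samples had 7.41, 9.30, 10.4 and 9.23 CPM and the PTH samples 3.18, 3.31, 3.76 and 5.33 CPM, without overlap. Axin2 fell from 9.08 ± 1.24 to 3.89 ± 0.986 CPM (n = 4), and its log2 fold change was -1.22 (standard error 0.178, edgeR adjusted p = 1.44e-04). PTH replicate 4 was the highest of its group and vehicle replicate 1 the lowest of the other. An antisense gene, Gm11670, shares 209 exonic bases with Axin2 but had at most 4 counts in any sample.

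Axin1 encodes the constitutive counterpart of Axin2, on chromosome 17 from 26138688 to 26195811. Its level was 46.3, 43.8, 41.7 and 39.6 CPM with vehicle and 41.9, 40.7, 38.5 and 37.8 CPM with PTH, so the groups overlapped. The log2 fold change was -0.11 (95% confidence interval -0.26 to 0.044, edgeR adjusted p = 0.227). The ratio of Axin2 to Axin1 counts was between 0.160 and 0.249 with vehicle and between 0.0762 and 0.141 with PTH. Its log2 moved by -1.13 (exact permutation test, two-sided p = 0.0286, adjusted over the 4 ratios 0.0571).

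Ctnnb1, on chromosome 9 from 120929216 to 120960507, encodes β-catenin, which is regulated mainly through the stability of the protein. Its transcript was the most abundant of the members. It had 788, 809, 853 and 880 CPM with vehicle and 821, 805, 792 and 805 CPM with PTH. The PTH values lay within the range of the vehicle values. The log2 fold change was -0.047, with a 95% confidence interval of -0.19 to 0.099 (edgeR adjusted p = 0.598). β-catenin protein was not measured here. The gene shares 759 exonic bases with Ulk4 on the opposite strand, which had at most 214 counts in any sample against at least 26767 for Ctnnb1.

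Nkd1 and Nkd2 encode the naked cuticle proteins, which bind Dishevelled and dampen the signal it passes on. Nkd1, on chromosome 8 from 88521354 to 88594884, had 38.5, 42.7, 39.1 and 33.8 CPM with vehicle and 23.2, 22.7, 23.7 and 24.6 CPM with PTH. The PTH samples were close together, with a coefficient of variation of 3.37%, and all lay below the vehicle samples. The log2 fold change of Nkd1 was -0.71 (standard error 0.0794, edgeR adjusted p = 1.67e-05). Nkd2, on chromosome 13 from 73818534 to 73847631, had 20.5, 19.8, 17.7 and 22.1 CPM with vehicle and 16.2, 15.9, 14.6 and 16.4 CPM with PTH. Its decrease was the smallest among those called, with a log2 fold change of -0.35 (standard error 0.0879, edgeR adjusted p = 0.00670), and the groups were separated by a narrow gap. The log2 ratio of Nkd2 to Nkd1 was -0.944 ± 0.242 with vehicle and -0.580 ± 0.0858 with PTH, a difference of 0.364, and vehicle replicate 4 lay within the range of the PTH samples (exact permutation test, two-sided p = 0.0571, adjusted over the 4 ratios 0.0762). A difference between the 2 decreases was therefore not shown at 0.05.

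Rnf43 and Znrf3 encode related transmembrane ubiquitin ligases that clear Frizzled receptors, and R-spondins act by removing these ligases. Znrf3, on chromosome 11 from 5276324 to 5444847, had 11.5, 12.3, 12.3 and 12.2 CPM with vehicle and 9.38, 8.67, 9.06 and 6.25 CPM with PTH. All PTH samples were lower, and PTH replicate 4 was the lowest. The log2 fold change of Znrf3 was -0.53 (standard error 0.126, edgeR adjusted p = 0.00433). Rnf43, on chromosome 11 from 87662722 to 87735539, was much scarcer, with 39 to 74 counts in the vehicle samples and 19 to 32 in the PTH samples. In CPM it had 0.870, 1.19, 1.21 and 1.49 with vehicle and 0.371, 0.752, 0.574 and 0.761 with PTH. The log2 fold change of Rnf43 was -0.96 with a wide 95% confidence interval of -1.70 to -0.23 (edgeR adjusted p = 0.0343). This call rests on few counts: without any one of PTH replicates 1 and 3 or vehicle replicates 2, 3 and 4, edgeR's adjusted p was between 0.0651 and 0.0973. The log2 ratio of Znrf3 to Rnf43 was 3.35 ± 0.277 with vehicle and 3.77 ± 0.683 with PTH, within the spread between replicates (exact permutation test, two-sided p = 0.343).

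Sp5, on chromosome 2 from 70474923 to 70477729, encodes a zinc finger repressor that is a direct Wnt target in embryos and stem cells. It had 6 counts in PTH replicate 1, 8 in vehicle replicate 4 and 0 in the other 6 samples. At this depth no difference was detectable, and a count of 0 in a sample allows up to 3 counts.

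**Figure D4:**
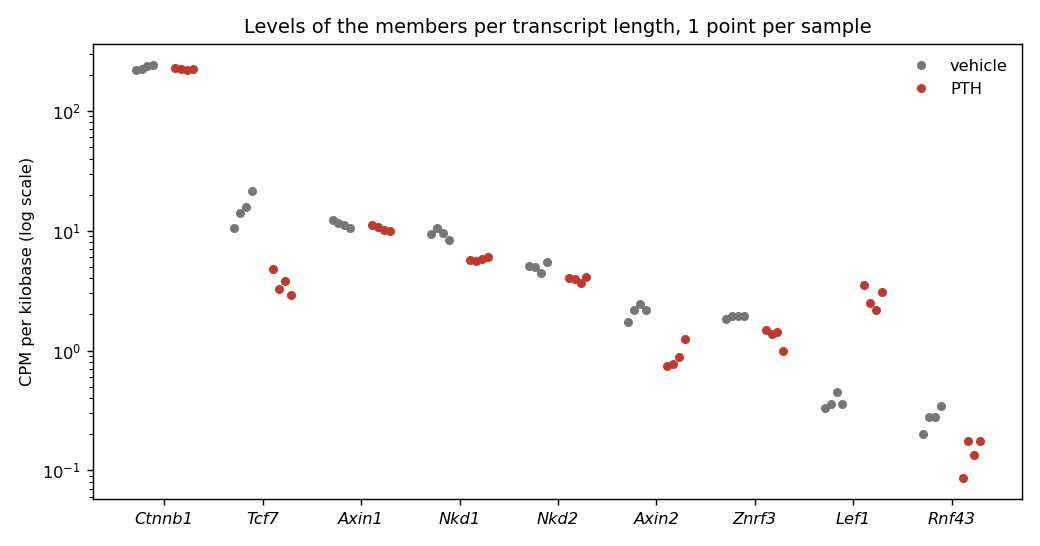
CPM per kilobase of the longest annotated transcript (vertical axis, log scale) of the 9 members tested, 1 point per sample, ordered by the vehicle mean. Ctnnb1 is at 217.5 or more in every sample, and Lef1 goes from between 0.330 and 0.451 with vehicle to between 2.19 and 3.54 with PTH. With PTH its range overlaps in part with that of Tcf7, between 2.93 and 4.76.

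Levels of different members were compared per kilobase of the longest annotated transcript, as a description with no test. With vehicle, Ctnnb1 had 229.8 ± 11.5 CPM per kilobase, followed by Tcf7 (15.5 ± 4.62), Axin1 (11.4 ± 0.763) and Nkd1 (9.44 ± 0.890). Tcf7 and Axin1 overlapped. Nkd2 (4.98 ± 0.452), Axin2 (2.13 ± 0.290) and Znrf3 (1.91 ± 0.0645) came next, and the last 2 of these overlapped. Lef1 (0.374 ± 0.0528) and Rnf43 (0.276 ± 0.0590) were the lowest of those tested and overlapped with each other. With PTH, the order after Ctnnb1 was Axin1, Nkd1, Nkd2, Tcf7, Lef1, Znrf3, Axin2 and Rnf43. Lef1 thus went from below to above Znrf3 and Axin2, at 2.82 ± 0.608 CPM per kilobase against 1.32 ± 0.225 and 0.914 ± 0.232, without overlap. Tcf7, at 3.68 ± 0.805, overlapped with both Nkd2 and Lef1. Znrf3 and Axin2 overlapped with PTH as well as with vehicle, so their order is not settled.

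Other pathway genes were read from 4 lists, to be set beside the 23.3% of all genes tested that rose, the 22.5% that fell and the median log2 fold change of -0.00081. Of 16 genes of the destruction complex and its turnover, all tested, 4 rose and 5 fell, with a median log2 fold change of 0.0069. Csnk1a1, which encodes the priming kinase of β-catenin, rose most (log2 fold change 0.84, edgeR adjusted p = 1.36e-06), and Amer1, an APC-binding membrane protein, fell most (-1.99, edgeR adjusted p = 1.11e-07). Among 20 nuclear partners, 3 rose and 5 fell, with a median of -0.082. Their extremes were Tle3, a Groucho-type corepressor that binds TCF factors (1.18, edgeR adjusted p = 2.77e-08), and Tbl1xr1, a cofactor of transcription complexes (-1.35, edgeR adjusted p = 1.10e-08). On the receptor side, 5 of 16 tested genes rose and 6 fell, with a median of 0.021. Lgr4, a receptor for R-spondins, rose most (1.13, edgeR adjusted p = 1.95e-06), and the R-spondin gene Rspo3 fell most (-1.13, edgeR adjusted p = 6.23e-08). In these 3 lists the medians were near that of all genes tested, and their counts of called genes are given as a description.

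Other genes known as Wnt targets in some tissue moved in both directions. Of 26 listed, 24 were tested, 10 rose and 7 fell, where 23.3% and 22.5% of all genes tested did. The list had a median of 0.26 on the log2 scale, and all genes tested had one of -0.00081. They ranged from Dkk1, a secreted inhibitor of Lrp5 and Lrp6, which fell by 5.57 on the log2 scale (edgeR adjusted p = 1.97e-06), to Ptgs2, the inducible cyclooxygenase, which rose by 5.82 (edgeR adjusted p = 1.59e-09). Many of these genes are also controlled by other pathways.

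**Figure D5:**
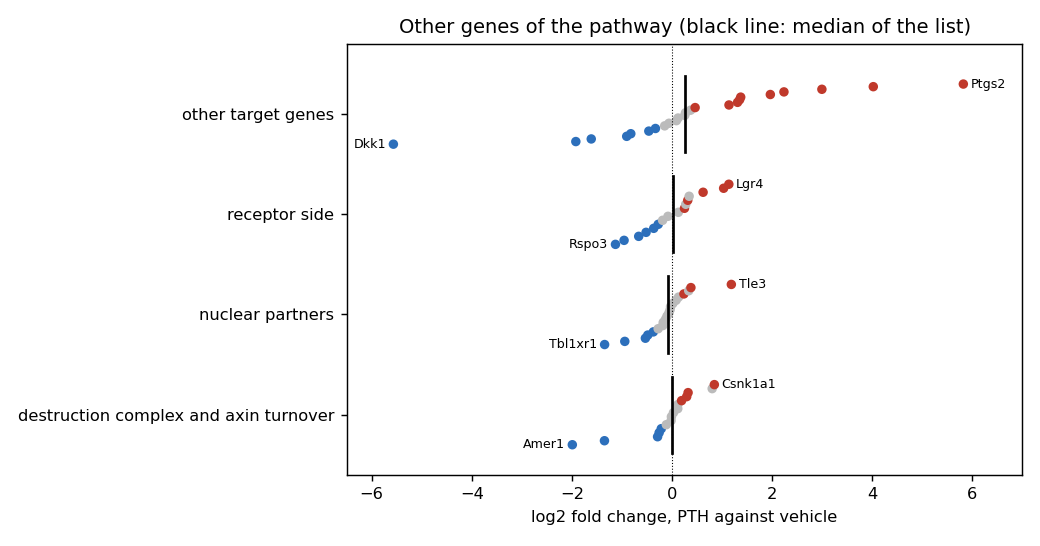
Log2 fold change (horizontal axis) of each tested gene of 4 lists of pathway genes, with the highest and lowest gene of each list named, red for higher and blue for lower at an adjusted p under 0.05, grey otherwise and the median as a black line. The medians of the 4 lists lie between -0.082 and 0.26, and the list of other target genes spans the widest range, from -5.57 to 5.82.

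Among 14069 other genes that averaged 1 CPM or more, those whose pattern over the 8 samples was most like that of Lef1 were Uap1, Crispld2 and Zfp36, with a root mean square difference of 0.131, 0.158 and 0.165 in centred log2 CPM. Uap1, an enzyme of hexosamine synthesis, went from 50.3 ± 3.19 to 393 ± 57.9 CPM, and Zfp36, an RNA-binding protein that destabilizes mRNA, from 23.0 ± 1.77 to 152 ± 11.6 CPM. The genes most like Tcf7 were Mef2c, Kctd14 and Sgms2, at 0.216, 0.264 and 0.270. Mef2c, a transcription factor, went from 89.5 ± 24.6 to 24.9 ± 1.48 CPM (n = 4).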

How the data were processed

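Poly(A) RNA of 8 samples of mouse calvarial osteoblasts, 4 with PTH and 4 with vehicle, was sequenced as paired reads. The authors aligned the reads to mm10 (GRCm38) with HISAT2, assembled transcripts with StringTie and deposited whole-number estimated read counts for each gene, derived from transcript coverage and not normalized. Versions, annotation, strand and read length settings were not given in the sources used here. Members and lists were chosen with earlier results of these data known. Groups came from the sample labels. Genes were kept by filterByExpr (minimum count 10, minimum total 15), scaled by TMM and tested with the quasi-likelihood test of edgeR 4.0.16 in R 4.3.3, two-sided, with Benjamini-Hochberg adjustment over 16736 genes. CPM and exact permutation tests (SciPy 1.17.1) were computed from the same counts. Ratios had 0.5 added to each count. Levels between genes were divided by the longest GENCODE M21 transcript, which need not be the one expressed. The genes named were all members, Tnfsf11, the called genes with the highest and lowest fold change of each list, and the 3 genes nearest in pattern to Lef1 and to Tcf7, while Tcf7l1, Tcf7l2 and the overlapping and marker genes were added after their values were seen. Total counts were between 33605610 and 56090654. On simulated data with 200 changed genes of 16736, edgeR recovered 70 of 100 at 2-fold and 93 of 100 at 4-fold, with 9 false calls. The real comparison called 7669 of 16736 genes, a far larger share than was changed in the simulation, so these rates need not hold for it. Alternatives were DESeq2 1.42.0, other scaling and filters, a replicate block, leaving out each sample, merged entries, a rescaling of the counts for a read length of 150 in place of 75 bases, and a fold threshold.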

Additional observations from a re-analysis of the deposited data

Results flagged for a closer look

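Among the 28 groups of 4 values examined for a sample far from the others (CPM of each member and the log2 ratio of each pair, in each treatment), 3 held one, and chance flags about 1 in 20 groups. Znrf3 had 11.47 CPM in vehicle replicate 1, while the other vehicle samples had between 12.22 and 12.33 CPM, and that sample was still above every PTH sample. Sp5 had 0.1613 CPM in vehicle replicate 4 and 0 in the other vehicle samples. In the PTH samples Sp5 had 0.1171 CPM in replicate 1 and 0 in the others. Where all other samples are at 0, any count in 1 sample is flagged, so the rate of 1 in 20 does not apply to Sp5.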

How the results depend on the processing

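When genes also had to reach 1 in log2 fold change, 3 members passed, of which 2 were lower, in place of 7 and 6. Leaving out 1 sample at a time gave between 6 and 7 members called, with 1 higher and between 5 and 6 lower. The difference was Rnf43, whose edgeR adjusted p was 0.0767 without PTH replicate 1, 0.0696 without PTH replicate 3, 0.0651 without vehicle replicate 2, 0.0688 without vehicle replicate 3 and 0.0973 without vehicle replicate 4. Rnf43 was not tested where at least 1 CPM in at least 4 samples was required, and 6 members were then called. For the other 6 members called, direction and call were kept in all 16 alternatives, and Ctnnb1 and Axin1 were called in none of theirs. Over the samples left out, the log2 fold change of Lef1 was between 2.78 and 3.02, that of Tcf7 between -2.23 and -1.87 and that of Axin2 between -1.41 and -1.13. The difference in log2 ratio was between -1.31 and -1.02 for Axin2 to Axin1, 0.297 and 0.474 for Nkd2 to Nkd1, 0.135 and 0.671 for Znrf3 to Rnf43, and 4.75 and 5.08 for Lef1 to Tcf7. The Znrf3 to Rnf43 difference fell from 0.419 to 0.135 without PTH replicate 1.

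Samples with the same replicate number did not deviate together (correlations between -0.0409 and 0.0274), so the numbers were not taken as a pairing. With the replicate block 7 members were called, 1 higher and 6 lower, Rnf43 with an edgeR adjusted p of 0.0440, and 7003 genes in place of 7669. Depth limits what can be said of Rnf43, and of Sp5, for which no fold change is reported here.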
